A study of Mus musculus with 69 samples.

Results

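Apical progenitors of the embryonic mouse cortex were divided by a single gene, the proneural transcription factor Neurog2. The cells came from the germinal layers beside the ventricle, the ventricular zone and the subventricular zone (VZ/SVZ), in which progenitors divide. They were kept where the signal of Sox2, a neural progenitor factor, was above 50 and that of Eomes (Tbr2), a factor of intermediate progenitors, was at or below 50. Of 69 single cells, 66 came from the VZ/SVZ, 49 of these had Sox2 above 50, and 28 of the 49 had no Eomes above 50. Neurog2 was above 50 in 22 of the 28 (called cells with Neurog2) and at or below 50 in 6 (called cells without Neurog2). The other 21 cells with Sox2 also had Eomes above 50 and are used as the nearest neighbours in the data.

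Each sample was 1 cell, picked by hand at random from dissociated dorso-lateral cerebral wall of CD1 mice at embryonic day 14 and read on an Affymetrix expression array after amplification of its cDNA. No genotype, allele or treatment is named for any cell, and all cells share strain, age and tissue. The values are array intensities, called signal here. No label names an animal or litter, so each group counts as 1 sample, no test was possible, and the spread given is the SD between cells. The groups also followed a letter in the cells' titles, whose meaning the labels do not give: all 6 cells without Neurog2 carried the letter A, whereas 20 of the cells with Neurog2 carried X, 1 carried A and 1 carried B. Neurog2 status and title letter therefore cannot be told apart in any difference below. Values of the single letter A cell with Neurog2 are given for some of the genes.

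In the developing cortex, radial glia at the ventricle are held as progenitors by Notch signalling, in which a cleaved receptor joins the DNA-binding protein Rbpj and turns on the repressors of the Hes and Hey families. Neurog2 works against this state: as a basic helix-loop-helix (bHLH) factor it binds E boxes with E protein partners and turns on the Notch ligand Dll1, the Notch antagonist Hes6 and, through further factors, the programme of intermediate progenitors and neurons. Hes1 and Neurog2 are known to oscillate in radial glia, so the presence of either transcript in a cell is a snapshot.

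The promoters of Neurog2 and of the Notch effector Hes5 are printed to show these 2 inputs: a possible site for Hes repressors at the gene that divides the cells, and sites of the kind Rbpj reads at a gene under Notch control. Both come from RefSeq (GRCm38.p6), run from 250 bases before to 50 after the start of the gene, and were searched on both strands. In the Neurog2 promoter (chr3:127632886-127633185, plus strand) the capitals mark the only match to the N box CACNAG. In the Hes5 promoter (chr4:154960673-154960972, plus strand) they mark the 2 matches to TGGGAA, the core read by Rbpj, 1 on each strand. Hes1 and Hey1 are not in the promoter table used here.
Neurog2: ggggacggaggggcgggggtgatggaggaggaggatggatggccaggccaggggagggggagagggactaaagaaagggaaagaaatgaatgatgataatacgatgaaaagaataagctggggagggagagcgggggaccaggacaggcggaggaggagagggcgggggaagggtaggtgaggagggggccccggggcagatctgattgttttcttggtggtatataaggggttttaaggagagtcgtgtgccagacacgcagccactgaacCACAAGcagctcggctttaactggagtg
Hes5: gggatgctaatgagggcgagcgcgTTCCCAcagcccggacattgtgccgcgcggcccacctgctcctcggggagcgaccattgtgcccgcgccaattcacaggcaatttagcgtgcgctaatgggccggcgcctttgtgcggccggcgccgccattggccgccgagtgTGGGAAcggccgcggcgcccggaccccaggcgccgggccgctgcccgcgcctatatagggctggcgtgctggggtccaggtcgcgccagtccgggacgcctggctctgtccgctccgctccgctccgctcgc
Such matches are common: CACNAG was in 42.5% and TGGGAA in 25.6% of all 32851 promoter windows of 300 bases. The Neurog2 window held no E box (CANNTG), which 72.3% of all windows held. A match describes the letters in a window and is not evidence of binding.

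The genes of the rule are given as a description, since they chose the cells. Neurog2 ran from 62.4 to 4662 in the 22 cells with it, with a median of 869. In the 6 cells without it, Neurog2 ran from 1.09 to 28.4. The cells nearest the boundary of 50 read 62.4 and then 157 above it, and 28.4 and then 7.09 below it. Sox2 lay between 484 and 4345 (median 1612) with Neurog2 and between 504 and 1557 (median 1298) without. Eomes reached 40.8 in the cells with Neurog2, the next reading 26.4, and 12.5 in those without, while the lowest VZ/SVZ cell above 50 read 245. Another Eomes probe set was above 50 in 0 of 22 cells with Neurog2, in 1 of 6 without and in 15 of the 21 Eomes cells. Cells without Neurog2 were 13 of the 66 VZ/SVZ cells, and 5 of the other 7 had no Sox2 above 50. Over all letters, Neurog2 was not at its highest in these progenitors: its median was 3336 in the 21 Sox2 and Eomes cells, 19 of which had it above 50. Of these 21, 11 were letter B and 4 letter C. The 6 of letter X read 4.21, 21.2, 399, 656, 1212 and 3225, so 4 were above 50. The letter X cells with Neurog2 ran from 62.4 to 4662, so within that letter a higher level in Eomes cells was not seen.

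**Figure D1:**
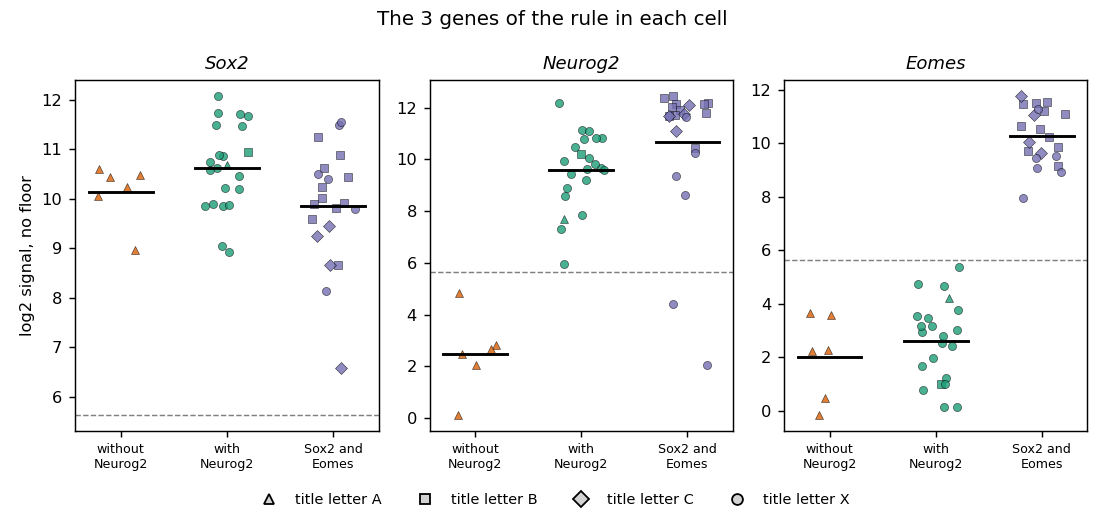
Signal of Sox2, Neurog2 and Eomes (log2, no floor) in each cell without Neurog2 (6), with Neurog2 (22) and with Sox2 and Eomes (21). Symbols give the title letter, bars the mean and dashed lines the cut of 50. All cells without Neurog2 are letter A, and the median of Neurog2 is 3336 in the Eomes cells against 869 in the 22 progenitors with it. The 6 Eomes cells of letter X run from 4.21 to 3225 for Neurog2.

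The arrays of the groups differed little in depth of detection. The number of genes above 50 per cell had a median of 4918 (4419 to 5715) with Neurog2 and 4955 (4471 to 5385) without. The spike RNA dap, added at 100 copies per cell, read 11.27 ± 0.58 and 11.46 ± 0.60 on the log2 scale (SD over 22 and 6 cells). The rarest spike, thr at 5 copies, read 4.94 ± 3.80 and 5.97 ± 3.94, so a transcript of a few copies can be missed in any single cell. Measured markers of interneurons (12), Cajal-Retzius cells (9), endothelium (8) and microglia (8) were above 50 in none of the 28 cells. Of 7 erythroid, 9 pericyte and 6 oligodendrocyte precursor markers, Epor, Col1a2, Dcn, Pdgfrb and Olig2 were above 50 in 1 or 2 cells each.

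Both groups had the apical progenitor profile that the label implies. Pax6 (the cortical radial glia factor), Vim (vimentin), Fabp7 (a radial glial lipid carrier) and Id4 (an inhibitor of bHLH factors) were above 50 in all 28 cells. Pax6 ran from 1073 to 3159 (median 2120) with Neurog2 and from 1042 to 3414 (median 2102) without, a difference of 0.01 in mean log2 signal. Of 28 measured apical progenitor markers, a median of 24 was above 50 per cell in both groups, with ranges of 20 to 25 and 23 to 25. The Eomes cells had a median of 16. Slc1a3 (the glutamate transporter GLAST) was above 50 in 20 of 22 and 5 of 6 progenitors and in 7 of 21 Eomes cells. Nes (nestin) was above 50 in 21 of 22, 5 of 6 and 11 of 21. The cells with and without Neurog2 overlapped for each of these genes.

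Across the genome the groups were compared gene by gene. Signal under 50 was set to 50, log2 was taken, and the mean of the cells without Neurog2 was subtracted from that of the cells with it. This difference was computed for the 8718 genes above 50 in at least 10% of the 28 cells, without the genes of the rule. By a rule of size, a difference of at least 1 log2 unit either way, 550 genes (6.31%) were higher and 473 (5.43%) lower with Neurog2. The median difference over all 8718 was 0.04, and the 5th and 95th percentiles were -1.04 and 1.08. No gene had groups that did not overlap, in either direction (0 of 8718 each way). These shares are the background for every list below. With 6 cells in a group a share of cells is loose: 6 of 6 has an exact Clopper-Pearson 95% interval of 54.1% to 100%, which covers counting error only.

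With the main settings, the genes that Neurog2 is known to turn on showed no difference past the rule of size between the groups. Of 22 listed Neurog2 target genes, 21 were measured and 11 passed the filter on low signal. None of the 11 was past 1 log2 unit either way, and their median difference was 0.28. This did not hold in every setting. Insm1 gave 1.05 at a Neurog2 cut of 100. With the floor at the TrpnX control probe sets (6.26), Cbfa2t2 gave 1.35 and Elavl4 1.36. As each cell was left out in turn, Insm1 reached 1.19 and Cbfa2t2 1.23. A median of 4 of the 21 was above 50 per cell in both groups, with ranges of 1 to 9 with and 2 to 6 without Neurog2, against 12 in the Eomes cells. Intermediate progenitor markers gave a median of 6 of 21 per cell with Neurog2, 6.5 without and 12 in the Eomes cells. Again 0 of 13 that passed the filter were past 1 log2 unit with the main settings.

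Dll1, the Notch ligand, ran from 2.1 to 1161 with a median of 14.1 in the cells with Neurog2, and from 5.6 to 394 with a median of 13.9 in those without. It was above 50 in 6 of 22 and 2 of 6 cells, a difference of -6.1 percentage points (Newcombe 95% interval -45.4 to 25.5, counting error only). In the Eomes cells it was above 50 in 14 of 21, with a median of 603. The progenitor groups overlapped over nearly their whole range, and the interval is too wide to show that they are alike. Dll3, a divergent Delta-type ligand, was above 50 in 0 of 28 progenitors and 5 of 21 Eomes cells.

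Hes6, a relative of Hes1 that antagonises it, was above 50 in 11 of 22 cells with Neurog2 (median 86.2, highest 1477) and 4 of 6 without (median 119, highest 412). The difference in mean log2 signal was 0.15. It was above 50 in 20 of 21 Eomes cells, with a median of 1684. Gadd45g, a stress-response and growth-arrest gene of newly committed cells, was above 50 in 3 of 22 cells with Neurog2 and 0 of 6 without, a difference of 13.6 points (interval -26.4 to 33.3). It was above 50 in 17 of 21 Eomes cells. Neurod1, the bHLH factor next in the cascade, was above 50 in 0 of 22, 0 of 6 and 8 of 21. Neurog1 was above 50 in none of these 49 cells, and Neurod4 in 1 cell without Neurog2 at 74.1 and in 1 Eomes cell.

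Some genes of the neurogenic lists were already widespread in progenitors of either kind. Insm1, a zinc finger factor of basal progenitors, was above 50 in 16 of 22 and 4 of 6 cells, with a difference of 0.66 log2 units (8.20 ± 1.89 against 7.54 ± 1.75, SD over 22 and 6 cells). Btg2 (Tis21), an antiproliferative gene of progenitors in neurogenic divisions, was above 50 in 16 of 22 and 5 of 6. Its difference was -0.33, but the sign did not hold at a Neurog2 cut of 200 (0.50). Rnd2, a small GTPase that Neurog2 uses in migration, was above 50 in 10 of 22 and 4 of 6. Cbfa2t2, a corepressor, had the largest difference of the list, 0.81, at 15 of 22 and 3 of 6. Elavl4 (HuD), a neuronal RNA-binding protein, was above 50 in 6 of 22 cells with Neurog2 and 0 of 6 without, a difference of 27.3 points (interval -14.2 to 48.1).

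**Figure D2:**
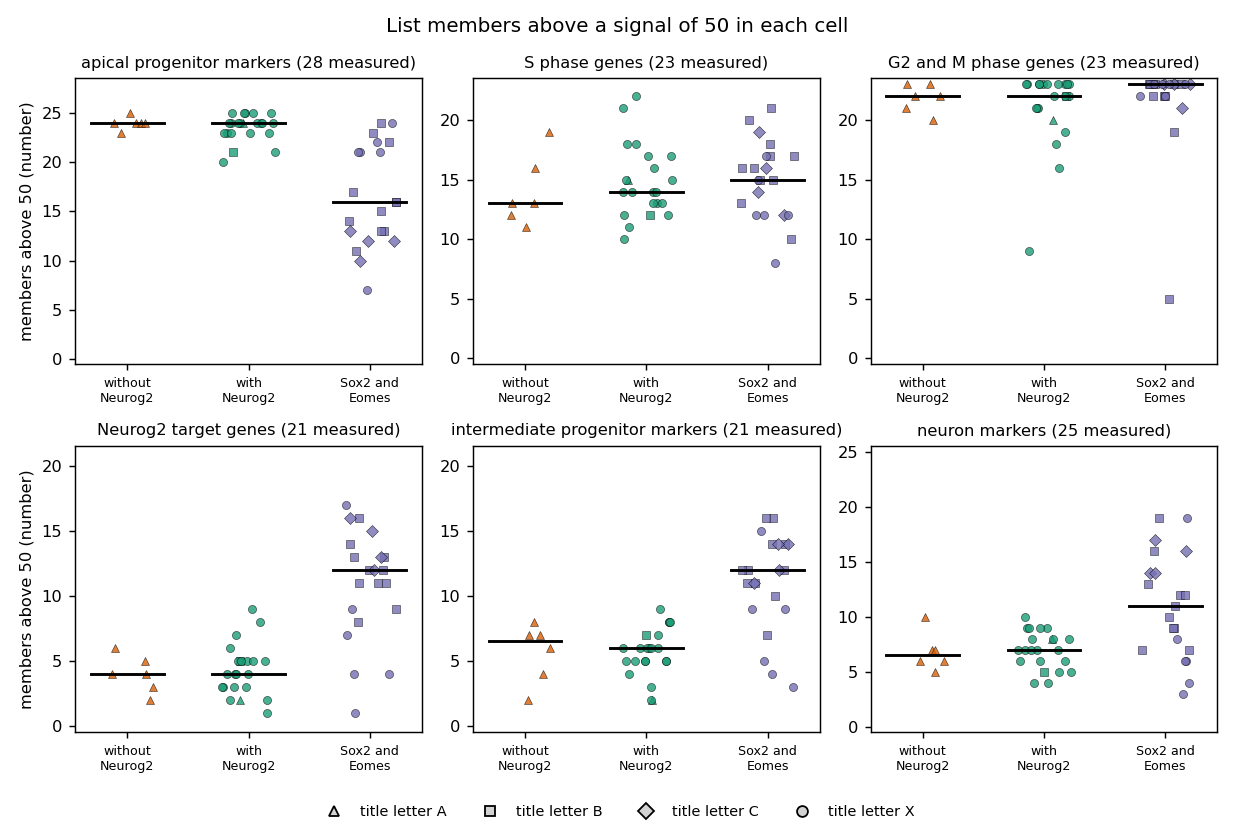
Number of measured list members with signal above 50 in each cell, for 6 lists and the 3 groups of cells; symbols give the title letter, bars the median, and the axis of each panel runs to the number measured. The medians of cells with and without Neurog2 are 4 and 4 for Neurog2 targets and 24 and 24 for apical markers, against 12 and 16 in the Eomes cells.

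Several of these genes were further apart between the 22 cells with Neurog2 and the Eomes cells. The share of cells above 50 was higher in Eomes cells by 67.3 points for Gadd45g (interval 38.6 to 81.8), 45.2 for Hes6 (18.9 to 64.9), 39.4 for Dll1 (9.6 to 60.8) and 71.9 for Dcx (43.8 to 85.0). The difference was -57.6 points for Slc1a3 (-75.0 to -29.2) and -40.5 for Hes1 (-60.9 to -13.1). Title letters differ here too, since 15 of the 21 Eomes cells were letter B or C. Within letter X, Hes6 was above 50 in 6 of 6 Eomes cells and 10 of 20 cells with Neurog2 (50 points, interval 6.11 to 70.1) and Dcx in 3 of 6 and 2 of 20 (40 points, 2.85 to 72.1). Within that letter the intervals for Dll1 (4 of 6 and 6 of 20, -6.04 to 64.9), Gadd45g (2 of 6 and 3 of 20, -13.3 to 56.3) and Hes1 (2 of 6 and 10 of 20, -47.7 to 25.1) spanned 0.

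Partners and inhibitors of Neurog2 come next. None of 6 bHLH factors and E proteins that passed the filter was past 1 log2 unit, and Tcf4 and Tcf12, the E proteins that pair with proneural factors, were above 50 in all 28 cells. Of the Id genes, whose products hold E proteins away from DNA, Id4 was above 50 in all 28 cells, with a difference of 0.85. Its median was lower with Neurog2 (2373.2) than without (2541.5), where the lowest cell read 129.8. Leaving out a single cell took the Id4 difference to 0.19. Id1 was above 50 in 10 of 22 cells with Neurog2 and 5 of 6 without, a difference of -37.9 points (interval -60.9 to 6.5). Id2 was above 50 in 9 of 22 and 1 of 6, and Id3 in 0 of 28.

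Among the effectors of Notch some differences were larger. Of 4 Hes and Hey effectors tested, Hes1 and Hey1 were lower with Neurog2 by more than 1 log2 unit and 0 were higher, with a median difference of -0.52 against 0.04 over all genes. Hes1, the main Notch effector of radial glia, read 109, 228, 407, 771, 825 and 853 in the 6 cells without Neurog2. In the 22 cells with Neurog2 it ran from 0.8 to 862 with a median of 63.9, and 11 were above 50. All 6 cells without Neurog2 had Hes1, while the cells with Neurog2 ranged from near 0 to as high as any of the 6, so the groups overlapped. The difference of means was -2.04 log2 units (6.67 ± 1.37 against 8.71 ± 1.21, 4.11-fold), and the share above 50 differed by -50 points (interval -69.3 to -6.5). Hes1 is read by 1 probe set. Its difference was -1.17 when cells were divided at a Neurog2 signal of 200 and -3.17 with the floor at the TrpnX control probe sets (6.26). In the single letter A cell with Neurog2, where Neurog2 read 206, Hes1 read 729, within the range of the other letter A cells.

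Among the cells with Neurog2, the median Neurog2 signal was 1076 in the 11 with Hes1 and 702 in the 11 without it, a description within cells chosen for Neurog2 above 50.

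Hes5 itself, the other classical effector, was above 50 in 16 of 22 cells with Neurog2 (median 149, highest 938) and 4 of 6 without (median 191, highest 295). Its difference was 0.08, against -2.04 for Hes1, and whether the genes differ in this was not tested. The other Hes5 probe set, above 50 in 16 of 22 and 4 of 6 cells, gave 0.66, and the mean of its probe sets gave 0.37. Hey1, of the sister family, ran from 0.7 to 2815 (median 626) with Neurog2 and from 415 to 2786 (median 1314) without. Its difference of -1.05 was narrowly past the rule of size and was between -0.78 (without cell 6 of the cells without Neurog2) and -1.33 as each cell was left out in turn. The letter A cell with Neurog2 had the highest Hey1 of all 28 cells. Nrarp, a Notch target that feeds back on the pathway, was above 50 in 21 of 22 and 6 of 6, with a difference of 0.01. Its other probe set was above 50 in 5 of 22 and 4 of 6 cells and gave -1.37. The mean of its probe sets gave -0.68. All 8 progenitors with Dll1 above 50 had Hes5 and Hey1 above 50 as well, and 5 of them had Hes1. The shares over all progenitors are the background for this. Hey1 was above 50 in 19 of 22 and 6 of 6, Hes5 in 16 of 22 and 4 of 6, and Hes1 in 11 of 22 and 6 of 6. Whether these genes go together with Dll1 was not tested.

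Upstream of these effectors, 13 Notch receptors, ligands and modifiers were tested, of which 0 were higher and 1, Rbpj, lower by the rule of size. Rbpj, the DNA-binding partner of the cleaved receptor, read between 341 and 1204 (median 799) in the 6 cells without Neurog2. It ran from 0.3 to 1574 (median 323) in those with it, of which 17 were above 50. The difference was -1.46, and its other 2 probe sets gave -0.74 and -0.39. The mean of all its probe sets gave -0.86, which is not past 1. Notch1, the receptor, lay the other way at 0.84 (1925 against 1119 in median signal) and was above 50 in all 28 cells. Its other probe set was above 50 in 11 of 22 and 3 of 6 cells and gave -0.42. The mean of the Notch1 probe sets gave 0.21. Pofut1, the enzyme that fucosylates Notch receptors, read between 444 and 2122 (median 922) in all 6 cells without Neurog2 and was above 50 in 13 of the 22 with it (median 252, difference -2.01). Its other 2 probe sets were above 50 in 0 and 1 cells, and the mean of its probe sets gave -0.64. Pofut1 is on no list and, like the detail on Hey1 and Rbpj, was chosen after its values were seen. The letter A cell with Neurog2 read 817 for Rbpj and 1914 for Pofut1, both within the range of the other cells of its letter.

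**Figure D3:**
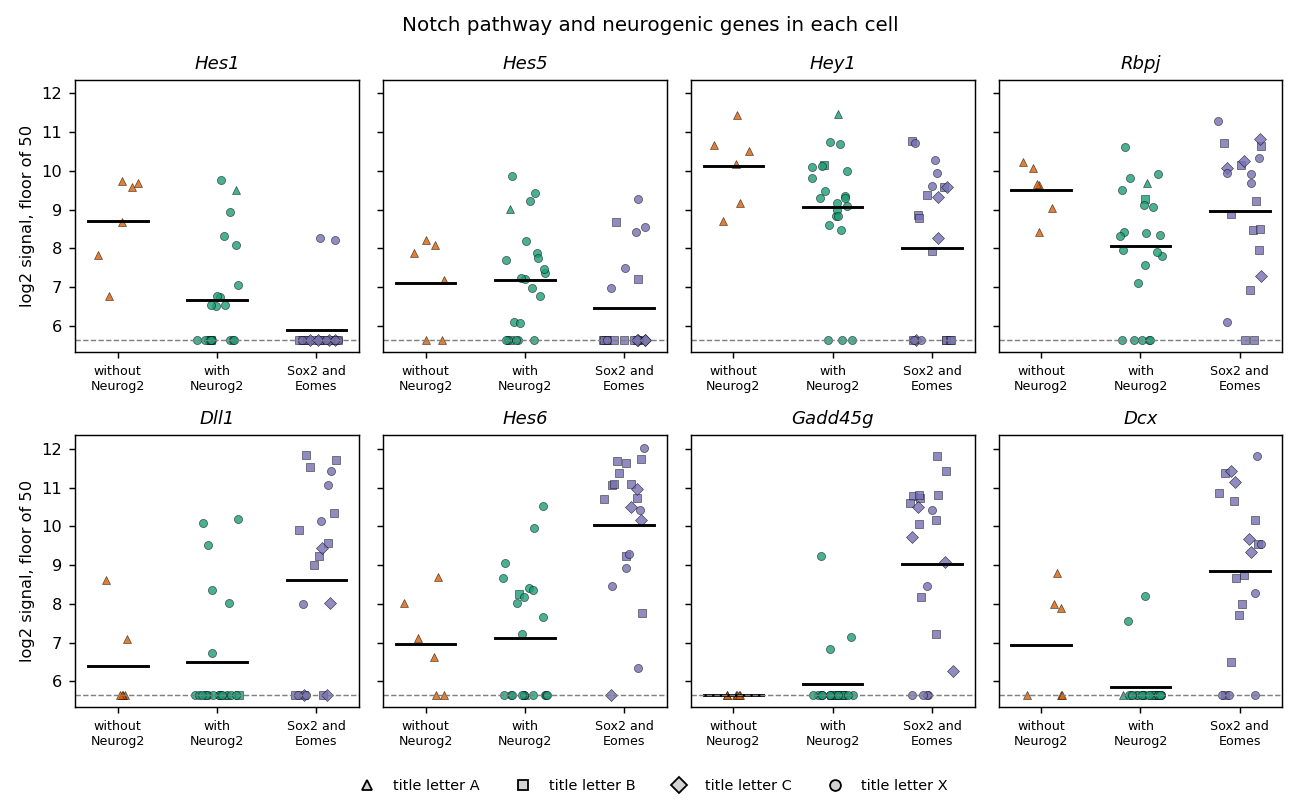
Signal (log2, values under 50 set to 50, dashed line) of 8 genes in each cell of the 3 groups, with the mean as a bar and the title letter as the symbol. Hes1 is above 50 in all 6 cells without Neurog2, 11 of 22 with it and 2 of 21 Eomes cells, while Dll1, Hes6 and Gadd45g are most often above 50 in the Eomes cells.

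Proliferation genes were present in both groups. Mki67 (the Ki67 antigen), Top2a (a mitotic topoisomerase) and Ccnd2, the cyclin of radial glia, were above 50 in all 28 cells. A median of 22 of 23 genes of the G2 and M phases was above 50 per cell in both groups, with ranges of 9 to 23 with and 20 to 23 without Neurog2. A median of 14 with and 13 without of 23 S phase genes was above 50. Of the S phase genes 3 of 23 (13%) were higher with Neurog2 and 0 lower, with a median difference of 0.36. These were subunits of the replicative helicase, Mcm6 (1.84) and Mcm5 (1.46), and the licensing factor Cdt1 (1.40). Mcm6 had a median of 1330 with Neurog2, where 15 of 22 cells were above 50, and of 18 without, where 2 of 6 were. Mcm5 was above 50 in 22 of 22 and 4 of 6, and without cell 2 or cell 4 of the cells without Neurog2 its difference was 0.79. The G2 and M genes had a median of -0.32, with 1 of 23 (4.35%) higher, Hmmr (1.18), and 3 of 23 (13%) lower: the spindle checkpoint kinase Bub1b (-1.10) and the mitotic kinesins Kif20a (-1.11) and Cenpe (-1.03). These 4 were near the rule: leaving out a single cell without Neurog2 took Hmmr to 0.75 (cell 3 or 7), Bub1b to -0.91 (cell 6), Kif20a to -0.98 (cell 7) and Cenpe to -0.86 (cell 2 or 6). With a Neurog2 cut of 100 in place of 50, Kif20a gave -0.19 and Cdt1 0.65.

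Of 12 G1 cyclins, CDKs and inhibitors, 2 were higher with Neurog2 and 0 lower. These were Rb1 (1.41; 18 of 22 and 2 of 6 cells above 50) and its relative Rbl1 (1.43), pocket proteins that restrain E2F factors. The CDK inhibitor Cdkn1b (p27) differed by 0.47 and was above 50 in 20 of 22 and 6 of 6, whereas Cdkn1c (p57) was above 50 in 1 of 28. With the mean of all probe sets in place of the brightest, Rb1 gave 0.70, Rbl1 0.40, Mcm5 0.87 and Cdt1 0.91. Among 6 antiproliferative genes 1 was higher, Tob1 (1.03; 0.71 without cell 2, 5 or 6 of the cells without Neurog2).

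Neuronal genes were sparse and split. Of 13 tested neuron markers, 2 were higher with Neurog2, the microtubule-binding Map2 (1.14) and the collapsin response mediator Dpysl3 (1.21). The other 3 past the rule were lower: the stathmin Stmn3 (-2.23), the microtubule protein Dcx (-1.09) and the tubulin Tubb3 (-1.05). Stmn3 was above 50 in 6 of 22 cells with Neurog2 (median 9.8) and 4 of 6 without (median 917), and another probe set gave -1.96. Dcx was above 50 in 2 of 22 and 3 of 6, with highest signals of 292 and 448 against 3583 among the Eomes cells. Tubb3 was above 50 in 5 of 22 and 3 of 6, with a highest signal of 620 without Neurog2 against 5653 in the Eomes cells. Leaving out a single cell without Neurog2 took Dcx to -0.71 (cell 4), Tubb3 to -0.64 (cell 7), Map2 to 0.68 (cell 5) and Dpysl3 to 0.78 (cell 2, 3 or 7). With the mean of all probe sets Map2 gave 0.16, Dpysl3 0.44 and Dcx -0.27. No progenitor of either group had both Dcx and Tubb3 above 50. The neuron markers above 50 numbered a median of 7 of 25 per cell with Neurog2 and 6.5 without.

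Genes of adhesion, polarity and migration gave few differences past the rule. Of 17 junction and polarity genes 2 were higher and 0 lower, N-cadherin (Cdh2, 1.26) and the scaffold Dlg5 (1.34). Cdh2 had a median of 1025 with and 390 without Neurog2 and was above 50 in 21 of 22 and 6 of 6. With the mean of all probe sets Cdh2 gave 0.94 and Dlg5 0.48, and at a Neurog2 cut of 200 they gave 0.91 and 0.67, so neither stayed past the rule. Without cell 3 or 7 of the cells without Neurog2, Dlg5 gave 0.9955. Among 7 delamination genes 1 was higher, again Cdh2. Of 14 migration genes 1 was higher, the Cdk5 activator Cdk5r1 (1.13; 8 of 22 and 0 of 6 above 50), and 2 were lower, Dcx and the Reelin adaptor Dab1 (-1.02). Another Cdk5r1 probe set was above 50 in 11 of 22 and 2 of 6 cells with a difference of 0.10; the mean of its probe sets gave 0.31, and without cell 66 of the cells with Neurog2 it gave 0.96. The sign of Dab1 did not hold when Neurog2 had to exceed 200 (0.03), and it gave -0.78 without cell 3 of the cells without Neurog2.

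Of 13 dorsal patterning factors 1 was higher, Dmrta2 (1.31), a factor that patterns the medial cortex, and 0 were lower. FGF and ERK response genes had 1 of 9 higher, the inhibitor Spred2 (1.14; 0.32 with the mean of all probe sets and 0.63 without cell 4 or 6 of the cells without Neurog2). Of 9 Sox factors 1 was lower, Sox11 (-1.16; -0.33 with the mean of all probe sets), though its other probe sets ran from -1.37 to 0.87. Among 4 immediate early genes the phosphatase Dusp1 was lower (-1.17; 9 of 22 and 4 of 6 above 50), and without cell 3 of the cells without Neurog2 it gave -0.77. No gene was past 1 log2 unit among 11 Wnt, 11 Hippo and 11 housekeeping genes.

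The genes with the largest differences belonged mostly to none of the lists. Those named here, higher or lower, were chosen for that difference and for shares at least 30 points apart. Intervals on their shares cover counting error only and cannot show a difference in genes so chosen. The 15 highest with Neurog2 were Tsn, Vps41, Trp53bp1, Sdhd, Agfg1, Fam13b, Kif7, Rab22a, Ddx20, Epdr1, Psmd4, Ppp2r2a, Ppp1r9a, Micu2 and Carnmt1, with differences from 2.65 down to 2.04. Tsn (translin, a nucleic acid binding protein) ran from 209 to 2679 (median 1254) with Neurog2 and from 26.5 to 662 (median 222) without. Its difference was 2.65, but its other 3 probe sets gave 2.17, 0.47 and -0.42. Vps41, a subunit of the HOPS complex for lysosomal trafficking, was above 50 in 21 of 22 cells with Neurog2 (median 555) and 1 of 6 without (250), a difference of 78.8 points (interval 35.5 to 93.0). Its other probe sets gave 1.59 and 0.77. Psmd4, a ubiquitin receptor of the proteasome, was above 50 in 20 of 22 and 1 of 6. With the mean of all probe sets, Psmd4 (0.87), Agfg1 (0.71), Ppp1r9a (0.66) and Rab22a (0.51) were no longer past 1 log2 unit. An Agfg1 probe set above 50 in 15 of 22 and 5 of 6 cells gave -0.38, the other direction, and its others gave 0.81, 0.50 and 0.30. A Rab22a probe set above 50 in 10 of 22 and 4 of 6 cells gave -0.74, and its others gave 0.58 and 0.0. Another Ppp1r9a probe set, above 50 in 13 of 22 and 2 of 6 cells, gave 0.29. Carnmt1 gave 0.61 at a Neurog2 cut of 200.

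Kif7, a kinesin that acts on Gli factors in the primary cilium, was above 50 in 15 of 22 cells with Neurog2, with a median of 360 and a highest signal of 1068. All 6 cells without Neurog2 read 9.5 or less, so with the floor as their value the geometric mean was at least 4.82-fold higher with Neurog2. The letter A cell with Neurog2 read 342 for Kif7 and 1018 for Vps41, in each case above all 6 other cells of its letter. It read 8.0 for Fam13b, below all 6, and 357 for Ddx20 and 431 for Ppp1r9a, within their range. For the rest of the 15 higher genes it read above all 6. The higher genes were chosen for their difference from these same 6 cells, with this cell among the 22. These readings are therefore not a separate check. Trp53bp1 (53BP1, a DNA break repair protein) was above 50 in 20 of 22 and 3 of 6, and the mean of its probe sets gave 0.79 in place of 2.49. Sdhd, a subunit of succinate dehydrogenase, was above 50 in 22 of 22 and 4 of 6, with medians of 509 and 92.8.

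The 15 lowest with Neurog2 were Ap4s1, Phkg2, Ajuba, Slc30a6, Zdhhc17, Snapc3, Stmn3, Cdc34, Nosip, Glg1, Fam3c, Chmp6, Zfp11, Gm2a and Rprd1b, with differences from -3.05 to -2.05. Ap4s1, a subunit of the AP-4 adaptor, lay between 1241 and 3360 (median 2309) in the 6 cells without Neurog2. It ran from 1.3 to 2300 (median 419) in those with it, 14 of which were above 50. Phkg2, a catalytic subunit of phosphorylase kinase, read between 265 and 795 in the 6 cells without Neurog2. It was above 50 in 7 of 22 with Neurog2 (highest 508), a difference of -68.2 points. The interval (-83.6 to -23.9) covers counting error only and not the choice of Phkg2 for its difference. Ajuba, a LIM protein of cell junctions that also acts in mitosis and the Hippo pathway, read between 1011 and 2675 without Neurog2 and was above 50 in 14 of 22 with it (median 479). Ap4s1, Phkg2 and Ajuba are each read by 1 probe set, and in the Eomes cells they were above 50 in 11, 6 and 10 of 21. With the mean of all probe sets, Zdhhc17 (-0.37), Rprd1b (-0.63), Glg1 (-0.70), Gm2a (-0.70) and Fam3c (-0.79) were no longer past 1 log2 unit. The other Gm2a probe sets were above 50 in 0 cells of either group. The other Fam3c probe set was above 50 in 10 of 22 and 1 of 6 cells and gave 0.57, the other direction. Another Glg1 probe set, above 50 in 16 of 22 and 4 of 6, gave -0.49.

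Slc30a6, a zinc transporter, was above 50 in 4 of 22 and 5 of 6 cells. Zfp11, a zinc finger protein, was above 50 in 0 of 22 cells with Neurog2 and 4 of 6 without, with the floor at least 4.36-fold lower than the mean without Neurog2. It was above 50 in 2 of 21 Eomes cells. The letter A cell with Neurog2 read 485 for Ap4s1, 25.8 for Phkg2 and 941 for Ajuba, below all 6 other letter A cells. It read 1.9 for Slc30a6 and 6.7 for Zfp11, below the median of those 6. For Zdhhc17 (13.1), Stmn3 (73.1), Glg1 (993), Fam3c (8.4) and Rprd1b (756) it read within the range of those 6 cells. For the remaining lower genes it read below all 6. The lower genes were chosen on the same cells, so these readings are not a separate check either. Over all 8718 genes, 30 were above 50 in all 6 cells without Neurog2 and in at most 50% of those with it, and 21 in 0 of the 6 and at least 50% of those with it.

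**Figure D4:**
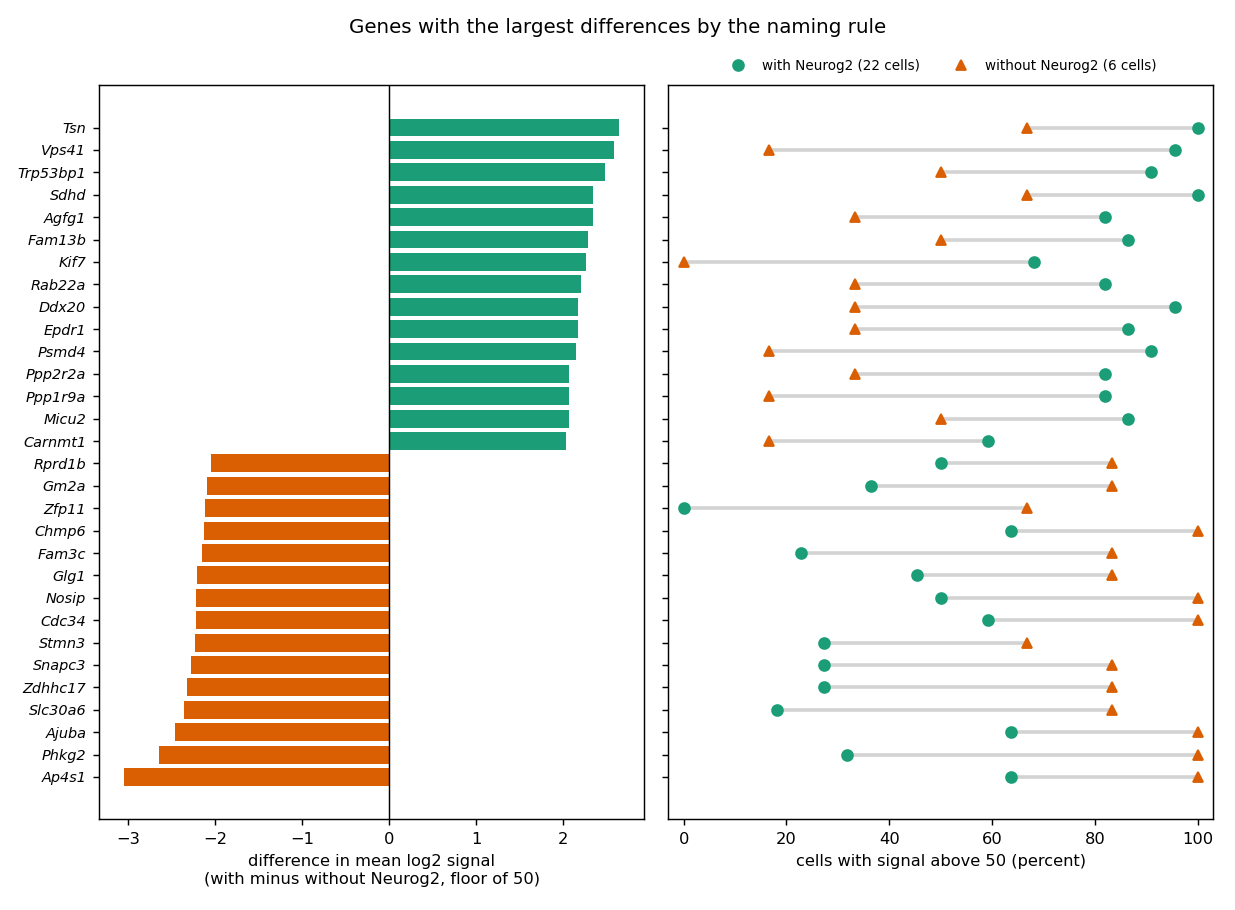
The 15 genes with the largest differences in either direction by the naming rule. The left panel shows the difference in mean log2 signal (with minus without Neurog2) and the right panel the percent of cells above 50 in the 22 cells with (circles) and 6 without Neurog2 (triangles). Kif7 was above 50 in 0 of 6 cells without Neurog2, and Zfp11 in 0 of 22 with it.

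The promoters of these genes were searched for CAGATG, an E box of the kind that Neurog2 prefers. Of the 15 higher genes 13 were in the promoter table with 14 windows, of which 1 (7.14%) held CAGATG on either strand. Of the 15 lower genes 14 were in the table with 15 windows, of which 1 (6.67%) held it. The share over all windows was 17.2%. CAGATG is also one of the sequences counted as CANNTG. The 2 windows that held it, 1 from each direction, are shown with the match in capitals. They are those of the neurabin gene Ppp1r9a (chr6:4902725-4903024, plus strand), higher with Neurog2 by 2.07 and above 50 in 18 of 22 and 1 of 6 cells, and of the stathmin gene Stmn3 (chr2:181314451-181314750, minus strand), with a difference of -2.23.
Ppp1r9a: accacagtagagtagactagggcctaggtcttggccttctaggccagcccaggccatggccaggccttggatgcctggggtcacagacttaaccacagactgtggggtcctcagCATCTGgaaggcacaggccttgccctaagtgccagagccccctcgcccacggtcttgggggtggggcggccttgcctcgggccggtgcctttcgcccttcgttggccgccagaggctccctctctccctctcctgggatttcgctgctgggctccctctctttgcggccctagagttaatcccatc
Stmn3: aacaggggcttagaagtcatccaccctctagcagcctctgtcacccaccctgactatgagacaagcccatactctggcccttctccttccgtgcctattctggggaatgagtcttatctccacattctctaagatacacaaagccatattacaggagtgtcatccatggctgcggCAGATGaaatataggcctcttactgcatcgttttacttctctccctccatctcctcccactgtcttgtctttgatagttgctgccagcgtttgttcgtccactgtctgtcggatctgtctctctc
No match says only that these letters are not in this window.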

How the data were processed

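Expression was measured in 69 single cells of E14 CD1 dorsal forebrain. The authors deposited 1 table of linear intensities by probe set. MAS5 produced them, per the submitters' processing notes; its version and the scaling are not given in the sources used here. Depth does not apply to arrays, and the number of cells limits precision. Probe sets with 1 gene in the platform annotation were used (34958 of 45101), keeping for each of 18194 genes the probe set whose mean log2 signal over the 69 cells was highest. The members and the 29 gene lists (359 of 380 genes measured) were chosen with earlier results of these data known. Named genes were the 15 with the largest difference each way (above 50 in at least 50% of the higher group, shares at least 30 points apart), up to 4 per list and fixed neurogenic, apical and cycle genes. Shares carry exact Clopper-Pearson and differences Newcombe 95% intervals. The arithmetic of the comparison was checked on simulated data with known shifts, which says nothing about false calls at these group sizes. Alternatives changed the floor, cuts, scaling, probe sets, filter and cells. Python 3.11.15, numpy 2.4.6, pandas 2.3.3, scipy 1.17.1 and matplotlib 3.10.9 were used.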

Additional observations from a re-analysis of the deposited data

How the results depend on the processing

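The counts of 550 higher and 473 lower genes went to 1405 and 1411 with a floor at the TrpnX control probe sets (6.26), to 249 and 201 with a floor of 100, and to 209 and 240 when a gene's probe sets were averaged. Leaving out each cell in turn gave 516 to 726 higher and 473 to 714 lower genes, the 714 without cell 4 of the cells without Neurog2. With the other alternatives that were run, both counts stayed within 1.5 times the main ones. Requiring Sox2 above 200 or Pax6 above 50, or leaving out cells with both Tubb3 and Dcx, changed no member.

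Of the 56 named genes past 1 log2 unit, 27 stayed past it with the mean of all probe sets, 42 with a floor of 100, 44 and 43 with Neurog2 cuts of 100 and 200. All 56 kept their sign in every alternative run, except Dab1 at the cut of 200 (0.0297). A comparison within a title letter was not run, since no letter held 2 cells of both groups, and the comparison with only the letter X cells with Neurog2 (588 higher, 471 lower) was chosen after seeing the data. Hes1 (-2.04) was between -1.84 and -2.43 as each cell was left out, -1.17 at the Neurog2 cut of 200 and -3.17 with the TrpnX floor. The causes of these shifts were not tested. Signal near 50 limits the rare transcripts most, as the spread of the thr spike shows.

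No paired analysis was possible because each group counts as 1 sample and the result comes from no test.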
